A study of Mus musculus with 24 samples.

Results

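Levels of 10 genes of triglyceride synthesis, lipoprotein export, fatty acid uptake and the control of fat storage were compared across 24 mouse livers. They are Gpam, Agpat2, Lpin2, Dgat1, Dgat2, Mogat1, Mttp, Apob, Cd36 and Pparg. Each was found on the array by its gene name among the non-control spots, and was represented by 1 probe, the one with the highest mean signal over the 24 arrays. The 10 genes are 10 of 37074 gene names on the array, and all 10 were among the 18649 genes that passed the filter on dim probes, which kept a probe that stood well above background on 6 or more of the 12 arrays of either diet.

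The study asked what happens in the liver of young mice when galactose takes the place of part of the glucose eaten after weaning. Female C57BL/6JRcc mice, an inbred laboratory strain, were housed alone and given a semi-synthetic diet from 3 to 6 weeks of age, in which monosaccharides supplied 32% of the energy, starch 32%, protein 20% and fat 16%. In the GLU+GAL group (12 mice) the monosaccharide was glucose and galactose in equal parts, and in the GLU group (12 mice) it was glucose. All 24 mice were killed on postnatal day 42, deprived of food and in the light phase, and their right liver lobes were used. Each mouse has its own array, on which its Cy5-labelled RNA was hybridised against a Cy3 pool made from all of the mice. Values below are log2 ratios of the mouse over that pool, so a difference of 1 is a doubling. They are set side by side only within a gene. Every mouse was read in Cy5 and the pool in Cy3, so mouse and dye cannot be told apart in the level of a ratio. The GLU+GAL and GLU means were -0.65 and -0.52 for Apob, -0.49 and -0.41 for Gpam, and 0.39 in each diet for Dgat1. Such levels are not read as more or less RNA than in the pool, and their cause was not tested.

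Hepatocytes build triglyceride on a glycerol phosphate backbone. Gpam, the mitochondrial glycerol-phosphate acyltransferase, adds the first fatty acid, Agpat2 the next one, Lpin2 removes the phosphate to leave diacylglycerol, and Dgat1 and Dgat2 add the last fatty acid. Mogat1 reaches diacylglycerol by another route, from monoacylglycerol. The product is stored in droplets or loaded by Mttp, a lipid transfer protein of the endoplasmic reticulum, onto Apob, the structural protein of very-low-density lipoprotein (VLDL). Cd36 carries fatty acids across the cell membrane, and Pparg is a nuclear receptor that drives fat storage genes, in adipocytes above all.

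In the Cy5 channel, 46.6% to 51.3% of the spots of an array stood well above background, and in the Cy3 channel 36.5% to 47.8%. All 10 hepatocyte markers looked at were well above background on all 24 arrays. In the mouse GLU+GAL 4 the pool channel correlated at a median of 0.980 with that of the other arrays, against 0.994 or more elsewhere, and the SD of its log2 ratios was 0.44, against at most 0.33 elsewhere. The mouse labelled GLU+GAL 12 had Eif2s3y and Ddx3y, which lie on the Y chromosome, well above background and Xist not, the opposite of the other 23 mice, although all are labelled female.

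None of the 10 genes differed between the diets past the threshold of 0.05 on the p adjusted over all 18649 genes in limma, where 0 genes (0%) were called and the lowest adjusted p was 0.523. The adjusted p was 0.999 for each of the 10. At an unadjusted p under 0.05, 0 of the 10 passed, against 803 genes, 4.31% of those tested. The GLU+GAL mean was higher for 5 genes and lower for 5, and of all genes tested 50.8% were higher, but Dgat1 and Dgat2 had the other sign with median centring and with the Cy5 channel alone, Agpat2 and Dgat2 in the authors' deposited table, and Lpin2 with the mean over all probes. The median of the 10 differences was -0.02, and over all genes tested it was 0.0013. The mean log2 ratio over the 10 was -0.03 in GLU+GAL mice and -0.03 in GLU mice.

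**Figure D1:**
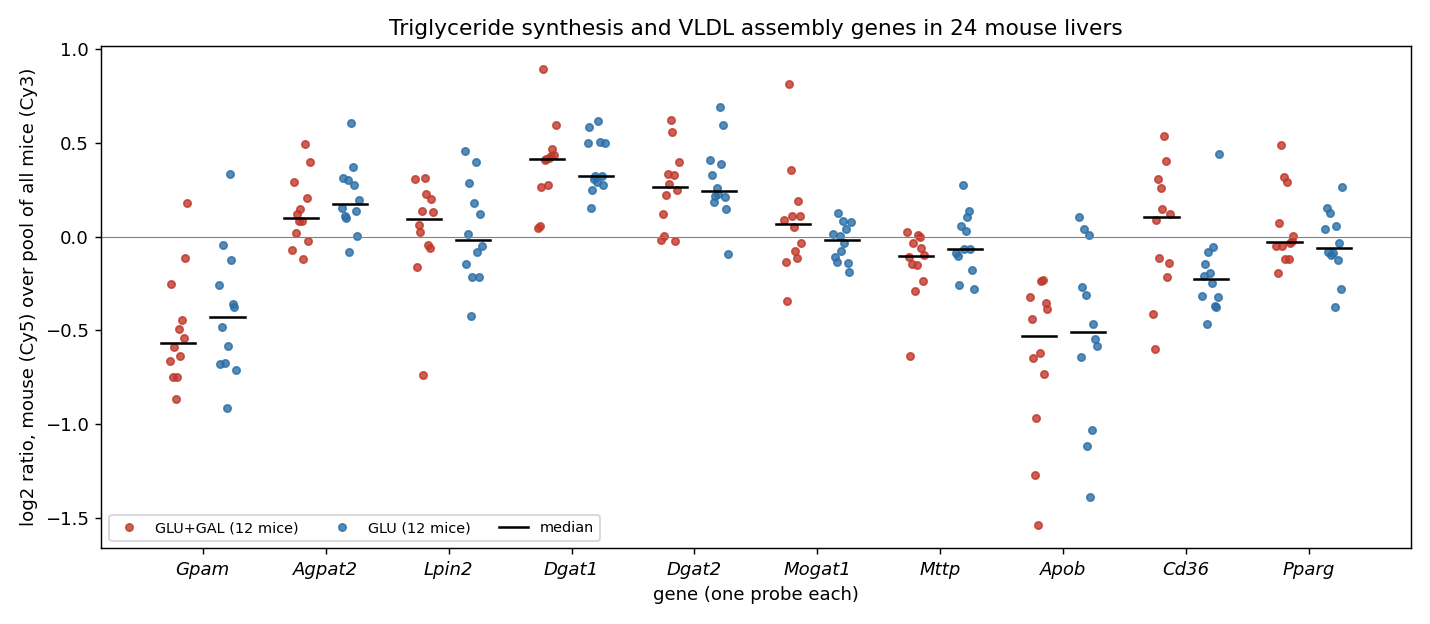
Log2 ratio of each mouse over the pool of all mice (vertical axis) for each of the 10 genes (horizontal axis), with the 12 GLU+GAL mice left of the 12 GLU mice and a bar at each median. In every gene the diets overlap, and Apob and Gpam spread widely in both.

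**Figure D2:**
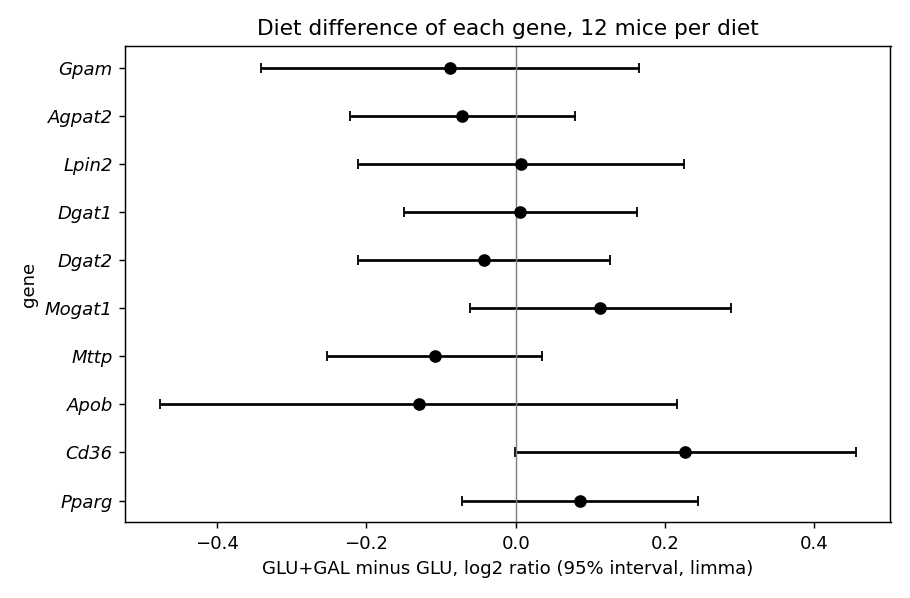
GLU+GAL minus GLU for each gene as a log2 ratio (points, horizontal axis) with its 95% interval from limma, 12 mice per diet. All 10 intervals include 0, and that of Cd36, from -0.00084 to 0.46, comes closest to leaving it out.

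The narrowest spread among the 10 was that of Mttp, whose interval ran from -0.25 to 0.04, and the widest that of Apob, from -0.48 to 0.22. As folds, the interval was 0.840 to 1.02 for Mttp and 0.719 to 1.16 for Apob.

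Gpam, which commits fatty acids to glycerolipid, varied more between mice than most genes. Its log2 ratio had a lowest, median and highest value of -0.87, -0.56 and 0.18 in GLU+GAL mice, and of -0.92, -0.43 and 0.33 in GLU mice. A mouse stood at the top of each group, GLU+GAL 12 and GLU 8, and the groups overlapped over nearly their whole range. The difference was -0.09 ± 0.12 (SE, n = 12 a diet; 95% interval -0.34 to 0.17; limma p 0.483), and 3 of 12 GLU+GAL mice were above the GLU mean. It was -0.15 without GLU+GAL 12 and -0.02 without GLU 8. The probe lies at chr19:55142203-55142262 in mm9, the build of the array's annotation. A second probe for Gpam, at a different site of its transcript, followed the first with r = 0.81 over the 24 mice and differed between diets by -0.11.

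Agpat2, which converts lysophosphatidic to phosphatidic acid, had a lowest, median and highest log2 ratio of -0.12, 0.10 and 0.50 in GLU+GAL mice and of -0.08, 0.18 and 0.61 in GLU mice. The groups overlapped throughout. The difference was -0.07 ± 0.07 (SE, n = 12 a diet; limma p 0.338), and it was 0.01 in the authors' deposited table. The chosen probe is at chr2:26448610-26448669 (mm9). A second Agpat2 probe, well above background on all 12 arrays of each diet, followed it with r = 0.66 and differed between diets by -0.10 ± 0.09 (SE). That probe is annotated over 27 bases of genome for 60 bases of sequence.

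Lpin2, a phosphatidate phosphatase, ran over -0.74, 0.10 and 0.32 (lowest, median, highest) in GLU+GAL mice and over -0.42, -0.02 and 0.46 in GLU mice. A single mouse, GLU+GAL 6, lay far below the rest of its group. The difference was 0.0071 ± 0.11 (SE, n = 12 a diet; limma p 0.947). Lpin2 is the member with the most probes on the array, 6, of which 5 passed the filter, and they do not all report the same pattern. The chosen probe sits at chr17:71598998-71599057 (mm9), and the next brightest pair, printed here because their diet differences had the opposite sign, are the following, 5′ to 3′ and in lower case:
Lpin2 probe at chr17:71580723-71580782: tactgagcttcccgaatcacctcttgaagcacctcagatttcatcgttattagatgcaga
Lpin2 probe at chr17:71595823-71596189: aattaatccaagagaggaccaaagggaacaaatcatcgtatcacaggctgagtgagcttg
The array annotation lists the second of them over 367 bases of genome for a 60-base probe. These probes followed the chosen one with r = 0.80 and 0.77 over the 24 mice, and their diet differences were -0.15 ± 0.12 and -0.10 ± 0.09 (SE). By the first of them GLU+GAL 6 was again the lowest mouse, at -0.80, but by the second it was GLU+GAL 4, at -0.37. A dimmer probe gave 0.10 ± 0.05 and followed the chosen one with r = 0.26.

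Dgat1 and Dgat2 are unrelated proteins that both turn diacylglycerol into triglyceride. Dgat1 had a lowest, median and highest log2 ratio of 0.04, 0.42 and 0.90 in GLU+GAL mice and of 0.16, 0.33 and 0.62 in GLU mice. The highest value was that of GLU+GAL 4, the only GLU+GAL mouse above every GLU mouse. The difference was 0.0062 ± 0.08 (SE, n = 12 a diet; limma p 0.935), and without GLU+GAL 4 and GLU+GAL 12 it was -0.06. Its only probe is listed over 147 bases of genome for 60 bases of sequence, at chr15:76333128-76333274 (mm9):
Dgat1 probe: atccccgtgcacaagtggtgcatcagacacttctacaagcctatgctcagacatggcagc
Dgat2, probed at chr7:106302215-106302274 (mm9), ran over -0.02, 0.27 and 0.62 in GLU+GAL mice and over -0.09, 0.24 and 0.69 in GLU mice (lowest, median, highest). The medians lay close together and both groups covered the same range. The difference was -0.04 ± 0.08 (SE, n = 12 a diet; limma p 0.615).

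Mogat1, the monoacylglycerol acyltransferase, was close to background, with a mean Cy5 signal of 87.1 and 11 of 12 arrays well above background in each diet. Its log2 ratio ran over -0.34, 0.07 and 0.81 in GLU+GAL mice and over -0.19, -0.02 and 0.13 in GLU mice (lowest, median, highest). The spread was wider in GLU+GAL mice, with an SD of 0.29, or 0.19 without GLU+GAL 4, than in GLU mice, with an SD of 0.10, and the highest value was again that of GLU+GAL 4. The difference was 0.11 ± 0.09 (SE, n = 12 a diet; limma p 0.195), and without GLU+GAL 4 it was 0.05. The probe lies at chr1:78534646-78534705 (mm9), and the other 2 probes for Mogat1 were well above background on none of the arrays.

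Mttp, which loads triglyceride onto apolipoprotein B, had a lowest, median and highest log2 ratio of -0.64, -0.10 and 0.03 in GLU+GAL mice and of -0.28, -0.07 and 0.28 in GLU mice. GLU+GAL 3 lay far below all of the others, and 3 of 12 GLU+GAL mice were above the GLU mean. The difference was -0.11 ± 0.07 (SE, n = 12 a diet; limma p 0.132), and without GLU+GAL 3 it was -0.06. It was negative on each of the 3 slides, at -0.0066, -0.10 and -0.22, and was -0.04 in the authors' deposited table. The probe lies at chr3:137753868-137753927 (mm9).

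Apob varied most. Its log2 ratio ran over -1.54, -0.53 and -0.23 in GLU+GAL mice and over -1.39, -0.51 and 0.11 in GLU mice (lowest, median, highest). The highest and the lowest mouse were 3.13-fold apart, and each diet held mice at the bottom: GLU+GAL 6 and GLU+GAL 4, and GLU 8, GLU 6 and GLU 9. The difference was -0.13 ± 0.17 (SE, n = 12 a diet; limma p 0.449), and it ran from -0.21 without GLU 8 to -0.05 without GLU+GAL 6. The array reads Apob at 2 sites far apart in the gene on chromosome 12, and both probes are shown because the spread between mice was seen at each of them:
Apob probe at chr12:8012697-8012756: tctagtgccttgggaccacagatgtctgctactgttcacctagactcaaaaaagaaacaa
Apob probe at chr12:7992933-7994547: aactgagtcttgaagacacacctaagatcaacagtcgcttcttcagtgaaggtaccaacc
The first is the chosen probe, and the second is annotated over 1615 bases of genome. Over the 24 mice the second followed the first with r = 0.82. Its log2 ratio ran over -1.09, -0.08 and 0.27 in GLU+GAL mice and over -0.58, -0.08 and 0.49 in GLU mice, and its difference was -0.18 ± 0.16 (SE). GLU+GAL 6 was the lowest mouse by both probes.

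The sign of the Apob difference was not the same on all slides, each of which carried 4 GLU+GAL and 4 GLU arrays and had 1 scan. On slide 1 the GLU+GAL mice, from -0.44 to -0.23, all lay above the GLU mice, from -1.12 to -0.58, a difference of 0.53. On slide 2 the GLU+GAL mice, from -1.54 to -0.32, overlapped with the GLU mice, from -0.55 to 0.11, and the difference was -0.71. On slide 3 the difference was -0.21. In a limma test of the interaction of diet and slide, added after these differences were seen, Apob had a p of 0.00861 and an adjusted p of 0.292. At an unadjusted p under 0.05 that test picked 8.46% of all genes, and no gene at an adjusted p under 0.05. The second Apob probe gave 0.27, -0.71 and -0.11 on the 3 slides. None of the other 9 genes had an interaction p under 0.05, and the lowest was that of Gpam, 0.127.

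**Figure D3:**
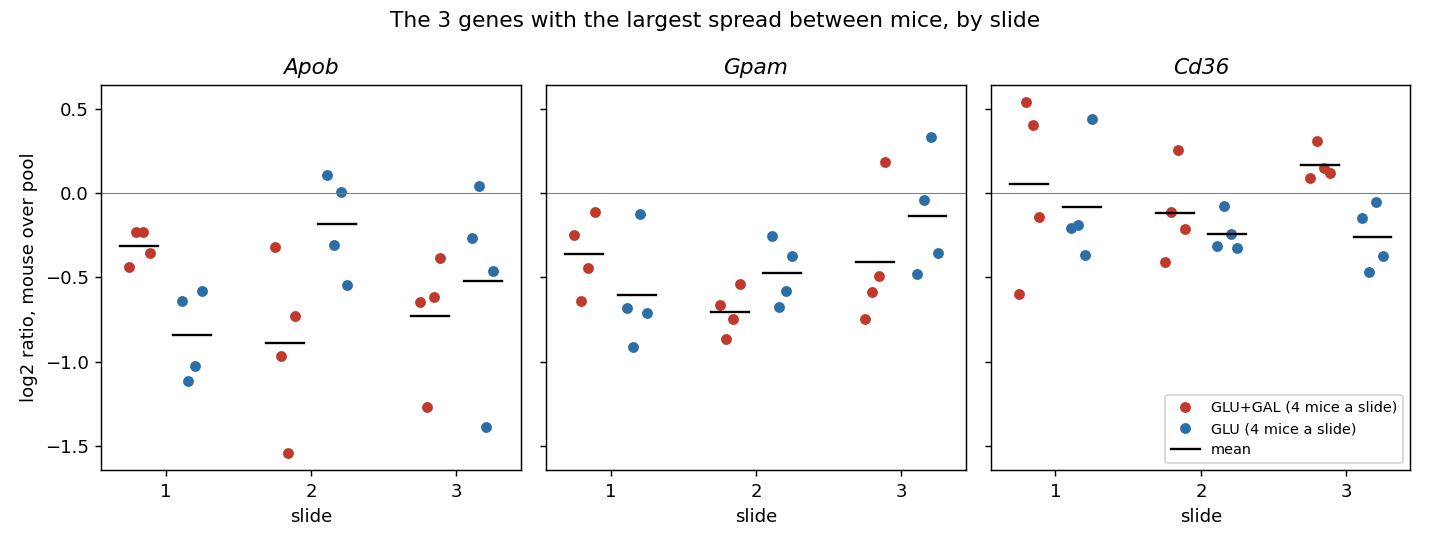
Log2 ratio over the pool (vertical axis) of Apob, Gpam and Cd36, the genes among the 10 with the largest spread between mice, by slide (horizontal axis), 4 GLU+GAL mice left of 4 GLU mice on each, with bars at the means. The Apob difference is 0.53, -0.71 and -0.21 on slides 1, 2 and 3, and the Cd36 difference is 0.13, 0.12 and 0.43.

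Cd36, the fatty acid transporter, came closest to a difference. Its log2 ratio ran over -0.60, 0.10 and 0.54 in GLU+GAL mice and over -0.47, -0.23 and 0.44 in GLU mice (lowest, median, highest). Of the 12 GLU+GAL mice, 9 were above the GLU mean, but the groups overlapped, and the highest GLU mouse, GLU 12, stood among the highest GLU+GAL mice. The GLU+GAL mean was 1.17-fold the GLU mean (95% interval 0.999 to 1.37), a log2 difference of 0.23 ± 0.11 (SE, n = 12 a diet; limma p 0.0508, adjusted p 0.999). Without GLU 12, a choice made after the values were seen, the difference was 0.28 with an unadjusted p of 0.0097 and an adjusted p of 0.919 in limma. Without GLU+GAL 4 and GLU+GAL 12 it was 0.19 with a p of 0.117. The difference was positive on each slide, at 0.13, 0.12 and 0.43, and 0.24 in the authors' deposited table. The probe lies at chr5:17288600-17288659 (mm9).

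Cd36 is also made by macrophages and endothelial cells. The means of the 10 Kupffer cell markers were all lower in GLU+GAL mice, with a median difference of -0.21 and 5 at an unadjusted p under 0.05, where 2.66% of all genes were lower and 1.65% higher, but 0 at an adjusted p under 0.05. Their mean log2 ratio per mouse ran from -0.59 to 0.30 in GLU+GAL mice and from -0.18 to 0.77 in GLU mice. Across mice Cd36 correlated with it at r = -0.46 (rho = -0.41, permutation p 0.0250, adjusted over 120 relations 0.250). That r takes in the diet differences of both. After centring on slide and diet it was -0.29, and it was -0.46 within GLU+GAL mice and -0.21 within GLU mice. With median centring in place of loess it was -0.25, and with Cy5 alone -0.51. Of the 10 hepatocyte markers 8 were lower and 2 higher, with a median difference of -0.10, 4 lower at an unadjusted p under 0.05 and 0 at an adjusted p under 0.05. Of 9 liver endothelial markers, 5 were higher and 4 lower, with a median difference of 0.0019. The part of these cells in the Cd36 value was not tested, and in whole liver a change in the number of cells and a change in RNA per cell cannot be told apart.

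Pparg had a lowest, median and highest log2 ratio of -0.19, -0.03 and 0.49 in GLU+GAL mice and of -0.38, -0.06 and 0.27 in GLU mice. Of the GLU+GAL mice, 3 were above every GLU mouse: GLU+GAL 4, GLU+GAL 6 and GLU+GAL 8. The difference was 0.09 ± 0.08 (SE, n = 12 a diet; limma p 0.274), and 0.05 without GLU+GAL 4. The probe lies at chr6:115440213-115440272 (mm9). Of 6 adipocyte markers, Plin1, Lep and Fabp4 were well above background on all 24 arrays, Retn on 8 GLU+GAL and 10 GLU arrays, and Cfd on 6 GLU+GAL and 4 GLU arrays. Adipoq, the adiponectin gene, was so on 2 arrays of each diet and was not tested. Of the 5 tested, 3 were higher and 2 lower, and their mean log2 ratio per mouse ran from -0.51 to 0.95 in GLU+GAL mice, highest in GLU+GAL 11, and from -0.52 to 0.22 in GLU mice. Pparg correlated with that mean at r = -0.22 (rho = -0.30, permutation p 0.285, adjusted over 120 relations 0.633), and the part of adipocytes in the Pparg value was not tested.

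Other genes of the same pathways, from lists that hold none of the 10, were likewise without a call, 0 of 43 tested at an adjusted p under 0.05. Of the 13 further genes of glycerolipid synthesis, 11 were tested, and 9 were higher in GLU+GAL and 2 lower, with a median difference of 0.06, where 50.8% of all genes were higher. Agpat5 and Agpat3, acyltransferases related to Agpat2, had the smallest p there, with differences of 0.10 ± 0.06 and 0.09 ± 0.07 (SE, n = 12 a diet; limma p 0.0825 and 0.186). Of the 16 genes of VLDL assembly and secretion, 4 were higher and 12 lower, with a median of -0.06. The 2 of them at an unadjusted p under 0.05 in limma, where 2.66% of all genes were lower, were lower: Aadac, an arylacetamide deacetylase of the endoplasmic reticulum, at -0.14 ± 0.06 (p 0.0200), and Mia2, a receptor that helps bulky cargo leave the endoplasmic reticulum, at -0.22 ± 0.09 (p 0.0234; SE, n = 12 a diet). For each, 10 of 12 GLU+GAL mice were below the GLU mean.

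Of 10 genes for the uptake and activation of fatty acids, 3 were higher and 7 lower, with a median of -0.07. Fabp1, the liver fatty acid binding protein, differed by -0.30 ± 0.19, and Acsl1, which couples fatty acids to coenzyme A, by -0.19 ± 0.15 (SE, n = 12 a diet; limma p 0.125 and 0.191). Of 6 genes of fat storage known to respond to Pparg, 4 were higher and 2 lower, with a median of 0.10, while the mean over the list was lower, -0.11 in GLU+GAL mice and -0.06 in GLU mice. Among the higher genes, 1 was well above background on only 5 GLU+GAL and 9 GLU arrays. Its difference was 0.17, with an SD of 0.79 in GLU+GAL mice and 0.15 in GLU mice, and 9 of 12 GLU+GAL mice were below its GLU mean. The lower genes were Plin2, a coat protein of lipid droplets, and G0s2, an inhibitor of the lipase that opens triglyceride stores. Plin2 averaged 0.02 ± 0.42 in GLU+GAL mice and 0.36 ± 0.39 in GLU mice (SD, n = 12; limma p 0.0344). G0s2 averaged -0.42 ± 0.69 in GLU+GAL mice and 0.09 ± 0.54 in GLU mice (SD, n = 12; limma p 0.0360). All 8 of the genes named from these lists had an adjusted p of 0.999. Across the 24 mice Pparg had r = -0.23 with the mean of the fat storage list (rho = -0.22, permutation p 0.273, adjusted over 120 relations 0.630), and r was 0.06 within GLU+GAL mice and -0.61 within GLU mice. Cd36 had r = -0.47 with the mean of the uptake list (rho = -0.55, permutation p 0.0218, adjusted 0.238). After centring on slide and diet that r was -0.29, and it was -0.41 within GLU+GAL mice and -0.36 within GLU mice.

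Within a diet, mice differed most in Apob, Gpam, Cd36 and Lpin2. The median residual SD of the 10 genes was 0.21 on the log2 scale, against 0.17 over all 18649 genes tested, and each of the 10 was above that median. Apob, with an SD of 0.45, was at percentile 98.2 of all genes, Gpam, at 0.32, at percentile 94.2, and Cd36, at 0.29, at percentile 91.6. Lpin2, at 0.28, was at percentile 89.8, just under the 90th percentile value of 0.28. The narrowest was Mttp, at 0.17 and percentile 53.5. The ratio of the highest to the lowest of the 24 mice was 2.38 for Gpam, 2.29 for Lpin2, 2.20 for Cd36 and 1.65 for Agpat2.

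Correlations among the 10 genes were computed across the 24 mice. Of their 45 pairs, 9 had a permutation p under 0.05 for Pearson's r and 0 after adjustment over the 45, the lowest adjusted p being 0.0812. For Spearman's rho 3 pairs had a permutation p under 0.05 and 0 after adjustment. With arrays centred on the median in place of loess, 17 pairs had an adjusted p under 0.05 for Pearson's r. The median size of r was 0.22, against 0.20 over the 171152751 pairs of the 18502 genes with a value on every array. A size of r of at least 0.4 was reached by 9 pairs, 20% of the 45, and by 16.1% of all pairs of genes. Of the 45, 29 were positive. The pairs are not independent, since each gene enters 9 of them.

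**Figure D4:**
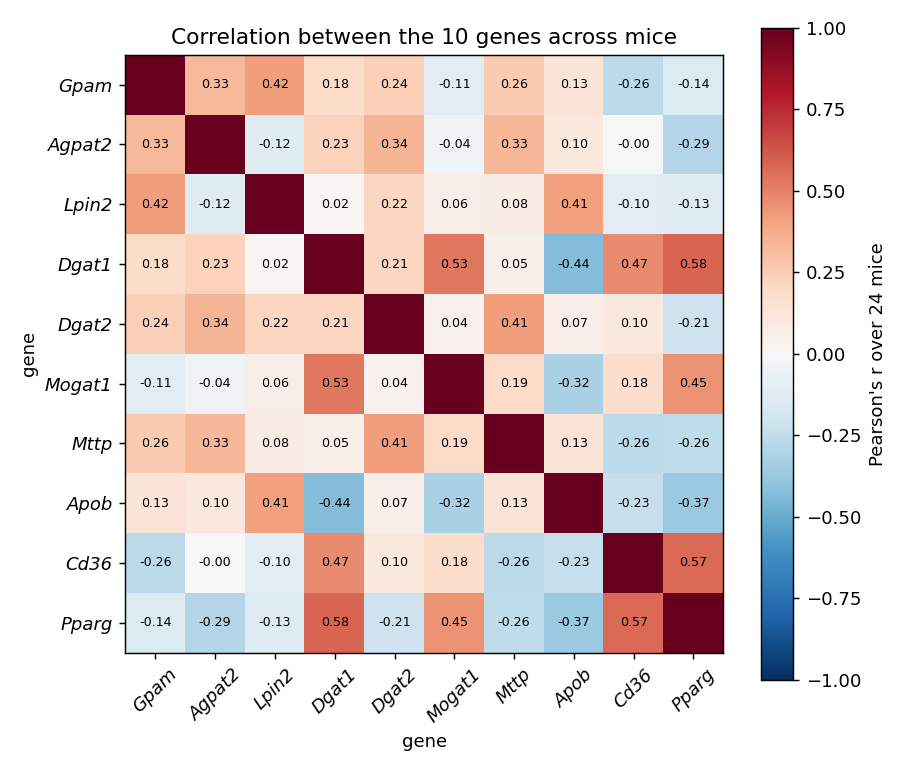
Pearson's r over the 24 mice for each pair of the 10 genes (both axes), from -1 in blue to 1 in red. Dgat1, Mogat1, Cd36 and Pparg correlate positively with each other, from 0.18 for Mogat1 and Cd36, which is -0.04 without GLU+GAL 4, to 0.58, and Apob negatively with each of these 4, from -0.23 to -0.44. The weakest of these, Apob with Cd36, is 0.49, -0.77 and -0.61 on slides 1, 2 and 3, and -0.15 without GLU+GAL 4.

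The highest r was between Dgat1 and Pparg, 0.58 (rho = 0.46, permutation p 0.00302, adjusted 0.0812), and next was Cd36 with Pparg, 0.57 (rho = 0.45, permutation p 0.00361, adjusted 0.0812). Without the 2 mice farthest from the median of the first gene, these were 0.43 and 0.43. The Cd36 and Pparg relation was positive on all 3 slides, at 0.68, 0.65 and 0.35, and was 0.52 without GLU+GAL 4. Dgat1 and Pparg gave 0.54, 0.36 and 0.75 on the slides, and 0.40 without GLU+GAL 4. Dgat1 with Cd36 had r = 0.47 (rho = 0.43, permutation p 0.0186, adjusted 0.209), which was 0.35 without the 2 farthest mice and between 0.42 and 0.58 on the slides. In the authors' deposited table, r was 0.54 for Dgat1 and Pparg, 0.53 for Cd36 and Pparg and 0.35 for Dgat1 and Cd36. These genes also correlated with a measure of the array. With the SD of an array's log2 ratios, r was 0.76 for Dgat1, 0.57 for Pparg and 0.45 for Cd36 (rho = 0.63, 0.35 and 0.47), against -0.47 for Apob (rho = -0.40). Without GLU+GAL 4 these r were 0.62, 0.28 and 0.41, against -0.36. The part of this spread in the correlations was not tested.

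Both high correlations of Mogat1 rested on 1 array. With Dgat1, Mogat1 had r = 0.53 (rho = 0.25, permutation p 0.0131, adjusted 0.196), and 0.18 without GLU+GAL 4. With Pparg it had r = 0.45 (rho = 0.28, permutation p 0.0332, adjusted 0.238), and 0.09 without GLU+GAL 4. On slides 1, 2 and 3 these were 0.41, 0.26 and 0.73 for Dgat1, and 0.22, 0.32 and 0.82 for Pparg, and GLU+GAL 4 was on slide 3. Mogat1 itself followed how far an array's pool channel stood from the others, with r = -0.82 to the median Cy3 correlation (rho = -0.53), and -0.49 without GLU+GAL 4, the array farthest from the others. The log2 ratios of muscle genes were high on the same array. Of 6 muscle markers 3 were tested, and their log2 ratio on GLU+GAL 4 was 0.86 for Myh4, 1.05 for Mylpf and 0.83 for Tnnt3. Mogat1 correlated with the mean of these at r = 0.73 over 24 mice and 0.19 without GLU+GAL 4. With Cy5 alone that r was 0.18, with Agilent processed signals 0.15 and with median centring 0.27. In the authors' deposited table it was 0.42. Dgat1 and Pparg had r = 0.62 and 0.55 with the muscle mean, and 0.29 and 0.21 without GLU+GAL 4. The cause of the high muscle ratios was not tested. Of the other muscle markers, Ckm was well above background on 1 array and Acta1 on 1 of each diet.

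Gpam with Lpin2, the sixth highest pair, had r = 0.42 (rho = 0.37, permutation p 0.0413, adjusted 0.238), which was 0.33 without the 2 farthest mice, and 0.30, 0.49 and 0.51 on the slides. The lowest r were all with Apob. Dgat1 and Apob had r = -0.44 (rho = -0.37, permutation p 0.0326, adjusted 0.238), Pparg and Apob -0.37 (rho = -0.22, permutation p 0.0740, adjusted 0.333), and Mogat1 and Apob -0.32 (rho = -0.15, permutation p 0.126, adjusted 0.407). Without the 2 farthest mice these were -0.30, -0.25 and -0.16. The slides did not give Pparg and Apob 1 sign, with 0.26 on slide 1, -0.64 on slide 2 and -0.48 on slide 3. The relations of Dgat1 and of Mogat1 with Apob were negative on all 3, from -0.11 to -0.74 and from -0.13 to -0.41. Mogat1 with Apob was -0.59 within GLU+GAL mice and 0.29 within GLU mice, and -0.12 without GLU+GAL 4.

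Gpam and Mttp each followed a list of genes outside the 10. For each mouse the mean log2 ratio was taken over 12 gene lists, which gave 120 relations with the 10 genes, of which 5 had an adjusted p under 0.05 for Pearson's r and 4 for Spearman's rho. Gpam followed the mean of 10 lipogenesis genes, among them Fasn, Acly and Scd1, with r = 0.90 (rho = 0.84, permutation p 1e-05, the smallest that 100000 resamples give, adjusted 0.0012). The relation held without the 2 farthest mice, at 0.82, and on each slide, at 0.84, 0.77 and 0.96, and r was 0.91 within GLU+GAL mice and 0.89 within GLU mice. The second Gpam probe gave 0.84. Of the genes outside the list, 4 (0.0216%), Gpam included, correlated as highly with it. The lipogenesis mean itself ran from -0.54 to 0.91 in GLU+GAL mice and from -0.54 to 1.05 in GLU mice, so the diets covered the same range. For the other acyltransferases r with lipogenesis was 0.22 for Agpat2, 0.26 for Dgat1, 0.10 for Dgat2 and -0.10 for Mogat1, and the difference from Gpam was not tested. That of Agpat2 was 0.30, -0.48 and 0.93 on the slides.

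Mttp followed the fasting list and the list for fatty acid uptake and activation. Its r was 0.71 with the mean of 10 fasting genes, among them Cpt1a, Acot1 and Pdk4 (rho = 0.67, permutation p 0.00013, adjusted 0.0039), and 0.72 with the list for fatty acid uptake and activation (rho = 0.62, permutation p 7e-05, adjusted 0.0039). The mouse GLU+GAL 3, lowest in Mttp, was also lowest in the fasting mean, at -0.86, and without it the fasting relation was 0.58. Without the 2 farthest mice, GLU+GAL 3 and GLU 5, it was 0.51 and the uptake relation 0.57. On slides 1, 2 and 3 the fasting relation was 0.46, 0.76 and 0.86. Gpam had r = -0.17 with the fasting mean, and Mttp 0.13 with the lipogenesis mean.

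The other adjusted p under 0.05 were for Gpam with the VLDL assembly and secretion list and for Dgat2 with the glycerolipid synthesis list. The 5 relations are not independent, since Gpam and Mttp recur in them and list means can move together. The mice highest in the VLDL mean, GLU 9, GLU 8 and GLU 1, had lipogenesis means of 0.83, 1.05 and -0.08. GLU+GAL 3 was lowest in both the fasting and the uptake mean, at -0.86 and -0.25. How far the lists overlap across mice was not tested. Gpam had r = 0.73 with the VLDL list (rho = 0.77, permutation p 1e-04, adjusted 0.0039), and 0.77, 0.73 and 0.79 on the slides. Dgat2 had r = 0.63 with the glycerolipid list (rho = 0.58, permutation p 0.00109, adjusted 0.0262), and 0.76, 0.78 and 0.64 on the slides. For rho the adjusted p of Dgat2 was 0.0763. Without the 2 farthest mice r was 0.71 for Gpam and 0.49 for Dgat2. In the authors' deposited table the 5 relations had r between 0.64 and 0.92. With Agilent processed signals r was 0.50 for Mttp with the uptake list and 0.49 for Dgat2 with the glycerolipid list. With median centring in place of loess it was 0.87 for each of them.

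**Figure D5:**
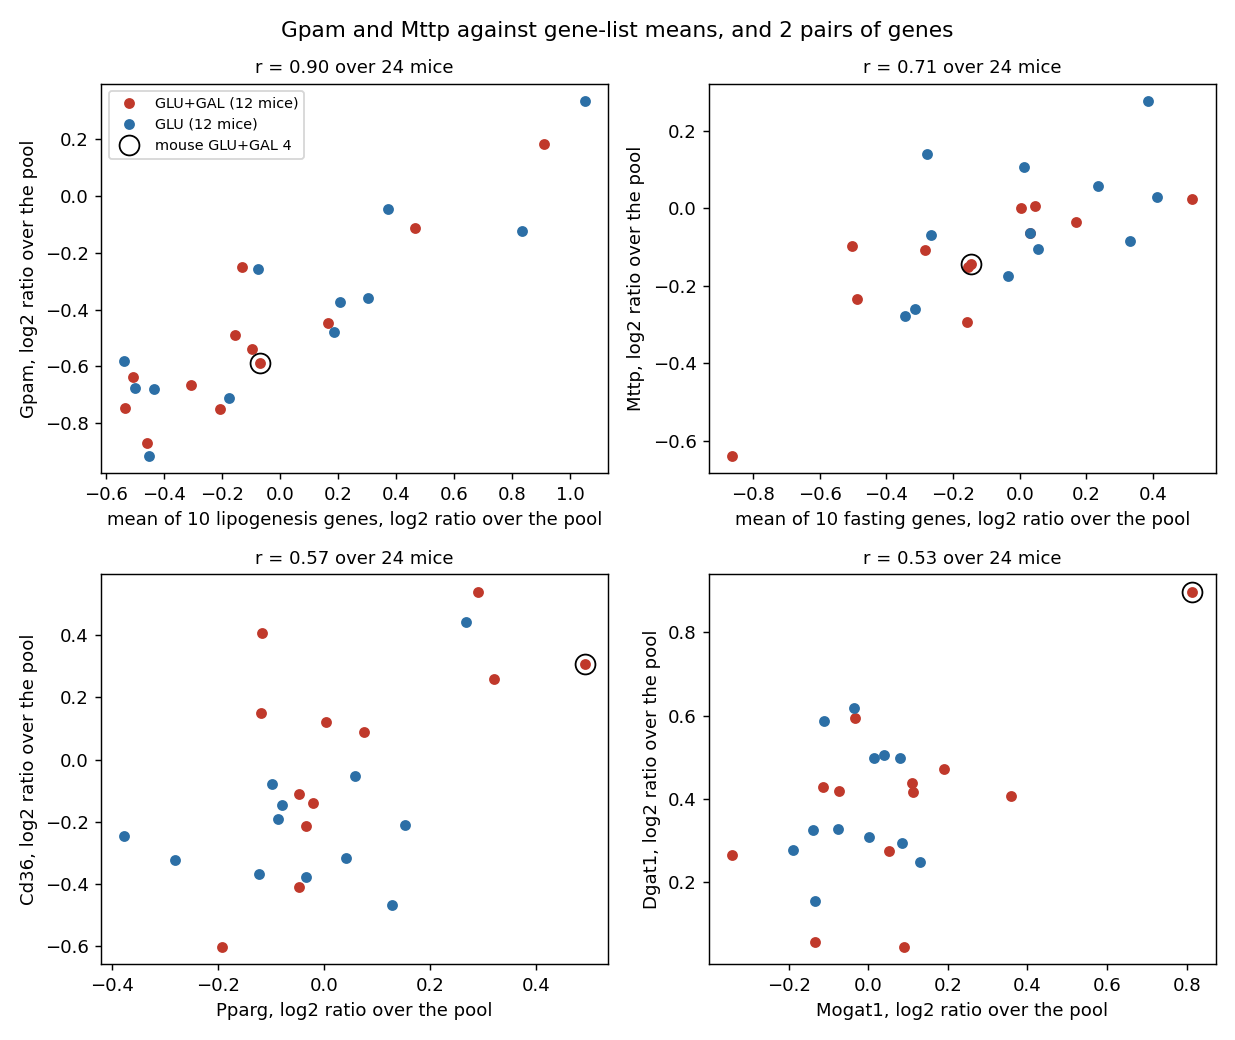
Each point is a mouse, with the log2 ratio over the pool on both axes: Gpam against the mean of 10 lipogenesis genes, Mttp against the mean of 10 fasting genes, Cd36 against Pparg, and Dgat1 against Mogat1, for 12 GLU+GAL and 12 GLU mice. The r are 0.90, 0.71, 0.57 and 0.53, and the ringed mouse GLU+GAL 4 stands alone at the top right of the Mogat1 panel.

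For each gene the most alike of all genes tested was the one with the highest r over the 24 mice, given here as a description, since the highest of so many is high by construction. It was Fasn, fatty acid synthase, for Gpam (r = 0.91), followed by an array entry without a gene symbol (0.90) and Cyb5r3, a cytochrome b5 reductase (0.90). It was Cat, catalase, for Agpat2 (0.81), Rgs16, a regulator of G protein signalling, for Lpin2 (0.83), and Hsd17b4, a beta-oxidation enzyme of peroxisomes, for Mttp (0.84). For Dgat2 it was Hs6st1, which sulfates heparan (0.84). For Cd36 it was Lppos (0.78), then Mcee, methylmalonyl-CoA epimerase (0.77), and Fn3k, a fructosamine kinase (0.75).

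Among the genes most like Apob were Dcaf12l2 (r = 0.91) and Trp53rkb, a protein kinase (0.89). The second Apob probe had r = 0.82 with Dcaf12l2 and 0.78 with Trp53rkb. For Dgat1, Mogat1 and Pparg the highest r was lower without GLU+GAL 4. Degs2, a sphingolipid desaturase, had r = 0.83 with Dgat1 and 0.73 without that mouse, and Ttc5 had r = 0.78 with Pparg and 0.68 without it. The highest r of Mogat1 was with a transcript that has no gene symbol on the array, 0.87, and 0.64 without that mouse.

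The promoters of the 10 genes were read because Pparg belongs to a family of nuclear receptors that bind copies of AGGTCA, usually as a direct repeat. RefSeq promoters (GRCm38.p6, 250 bases before to 50 after the start) were found for 8 of the 10 genes, all but Dgat1 and Dgat2, as 13 sequences. On either strand AGGTCA was in 4 of these 13, of Cd36, Gpam and Pparg, and in 16.3% of all 32851 promoters. The windows of 60 bases that hold it are shown with it, or its reverse complement, in capitals, each 5′ to 3′ on the strand of the gene. The motifs begin 228 bases before the start for Cd36, 196 for Gpam, and 28 and 9 for the 2 Pparg starts:
Cd36 promoter at chr5:17836087-17836146: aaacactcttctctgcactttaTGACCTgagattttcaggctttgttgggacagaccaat
Gpam promoter at chr19:55099641-55099700: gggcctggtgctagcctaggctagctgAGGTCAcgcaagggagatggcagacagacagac
Pparg promoter at chr6:115361084-115361143: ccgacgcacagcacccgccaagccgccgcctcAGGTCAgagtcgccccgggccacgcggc
Pparg promoter at chr6:115362289-115362348: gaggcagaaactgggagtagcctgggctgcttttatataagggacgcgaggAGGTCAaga
Its direct repeat DR1, which holds the shorter motif, was in none of the 13 and in 0.0396% of all promoters. The sterol regulatory element TCACNCCAC was in none of the 13 and in 1.24% of all, CACGTG was in that of Lpin2 and in 7.15% of all, and TATAAA was in those of Apob and Pparg and in 13.6% of all. These are matches of letters in these windows.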

How the data were processed

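The 10 genes and all lists were chosen with earlier results of these data known. Per the file headers, the authors' deposited scanner files hold spot intensity values of both channels, made with Agilent Feature Extraction 10.7.3.1. A table of 29287 rows, also deposited by the authors, holds log2 values with a scaling that no source used here gives. Each of its 24 columns matched the log2 Cy5 signal of its own array best (r from 0.988 to 0.995).

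Mean signals were background-corrected by normexp (offset 50) and loess-normalised within arrays in limma 3.58.1 (R 4.3.3), controls at weight 0, outlier spots left out. Diets were compared with lmFit and eBayes, 2-sided, without covariates, with Benjamini-Hochberg adjustment over 18649 genes at 0.05. Correlations over mice used 2-sided permutation tests (100000 resamples), adjusted over the 45 pairs or the 120 list relations. The resamples shuffled mice across diets and slides, so a shared diet or slide difference can enter these p. In simulated data, 70% of 50 genes changed by 0.3 were recovered and all changed by 0.6, with 6 false among 191 calls. There 200 changed genes were drawn from all genes tested, and the noise was independent between genes. The median SD of all genes tested was 0.17, against 0.21 for the 10. The shares recovered are therefore not those to be had for the 10 genes, above all for Apob. The number of arrays limits the precision, and no 2 arrays were identical.

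Replicate numbers were not used to pair the mice in the main fit. Same-numbered mice correlated from -0.38 to 0.52, with a median of 0.16, above 0.1 in 8 of 12. Of the 12 GLU+GAL mice, 4 were most like the GLU mouse of the same number. These values do not settle whether the numbers pair the mice. Genes beside the 10 were named by a rule: the 2 with the smallest p in each pathway list, the gene most like each of the 10 (the top 3 for the 3 with the widest spread), and the 6 highest and 3 lowest pairs. Of the genes so chosen, 1 is left out of the text. Plots were drawn with matplotlib 3.10.9.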

Additional observations from a re-analysis of the deposited data

Results flagged for a closer look

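The Y-linked gene Eif2s3y, which is outside the comparisons above, gave a signal in the mouse labelled GLU+GAL 12 that lay 2.47 log2 units above the highest of the other 23 arrays, 8.89 against a median of 6.24 there in the Cy5 channel. Leaving out GLU+GAL 12 changed no call for the 10 genes, and it was the highest GLU+GAL mouse in Gpam.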

How the results depend on the processing

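No setting called any of the 10 genes. Over all genes 0 were called under 17 other settings, and 0 to 1 without each array in turn (1 without GLU replicate 3). The count at an unadjusted p under 0.05, 803 in the report, was 379 with median centring, 1242 without the filter, 1212 with array weights, 1270 within slide 1 and 1632 within slide 2. With replicate number as a block, 0 genes were called, 1123 had an unadjusted p under 0.05, and of the 10 genes only Cd36 did (0.0357, adjusted 0.792). Of 169 differences of the 10 genes under other settings, 150 kept their sign. With median centring Dgat1 was -0.0053 and Dgat2 0.039. With the Cy5 channel alone they were -0.0011 and 0.018. In the authors' deposited table Agpat2 was 0.013 and Dgat2 0.053. With the mean over all probes Lpin2 was -0.024, and with array weights Dgat1 was -0.022. Within slide 1 Gpam was 0.25, Dgat1 -0.14, Dgat2 0.049, Mogat1 -0.036, Apob 0.53 and Pparg -0.063. Within slide 2 Lpin2 was -0.17 and Dgat1 -0.0088, and within slide 3 Dgat2 was 0.061. Without GLU+GAL 4 and 12, Lpin2 was -0.0017 and Dgat1 -0.064. Leaving out each array in turn kept 221 of 240 signs, with ranges of -0.034 to 0.077 for Lpin2 and -0.040 to 0.038 for Dgat1. Cd36 stayed between 0.18 and 0.28, with an unadjusted p under 0.05 in 8 of 24, and its unadjusted p was 0.0462 with Agilent processed signals, 0.0216 with Cy5 alone and 0.0389 with array weights. Pairs of the 10 genes past an adjusted p of 0.05 numbered 17 with median centring and 0 in every other setting. The causes were not tested. Depth is limited by signal: Mogat1 lay near background.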
